A study of Mus musculus with 18 samples.

Results

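A set of 10 genes for photoreceptor transcription factors was followed in RNA-seq of sorted mouse cones: Crx, Otx2, Neurod1, Rorb, Prdm1, Rxrg, Thrb, Sall3, Nrl and Nr2e3. They were chosen by symbol, as 10 of the 54532 genes in the count tables. The libraries came from 18 retinas of wildtype (WT) mice, with a fixed number of sorted cones and 1 Smart-Seq2 library (full-length cDNA) per retina. BALB/c, an albino strain, was taken at postnatal day 21 and gave 6 control and 6 Txnip libraries, and C57BL/6J, a pigmented strain, was taken at postnatal day 35 and gave 3 of each. All retinas had received an AAV8 vector with H2BGFP under the SynP136 promoter, a nuclear green fluorescent tag driven in cones, and the Txnip retinas had also received AAV8 with Txnip under the red opsin promoter (RedO). Txnip is thioredoxin-interacting protein, an arrestin-family protein that limits glucose uptake. RedO is described as weakly active in some rods. The sorted cells were H2BGFP+, although 1 field of the labels speaks of antibody staining instead. Since every C57BL/6J retina was older than every BALB/c retina, strain and age cannot be told apart. No source says which retinas shared a mouse, so the p-values below measure only the spread between these libraries.

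The libraries held 647712 to 5172156 counted read pairs, with a median of 2886629. The cone markers fit the label: Opn1sw (S opsin) had at least 14070 CPM (counts scaled to the library size) in every library and Arr3 (cone arrestin) at least 2886 CPM. Markers of other cells were not all near 0: Rpe65, a pigment epithelium gene, was at 0 in 14 of 18 libraries, but in BALB/c the ganglion cell gene Nefl had 212.3 to 734.8 CPM and the amacrine gene Gad1 81.02 to 241.8 CPM. Genes of the same lists differed, since in BALB/c the ganglion cell gene Pou4f2 had 0 to 7.36 CPM and the amacrine gene Slc32a1 0 to 4.68 CPM. A pair of C57BL/6J libraries stood apart. Of all counts, 8 rod genes (Gnat1, Gnb1, Pde6a, Pde6b, Cnga1, Cngb1, Reep6 and Slc24a1) took 0.703% in control 1 and 0.523% in Txnip 2, against 0.0616% to 0.158% in the other 16 libraries. These 8 are a rod list of 11 genes without Sag, Pde6g and Gngt1, which were left out after seeing the data. On all 11 genes control 1 was highest at 1.892%, but Txnip 2, at 1.313%, lay within the 1.002% to 1.746% of the other 16 libraries. The pair is called high in rod genes below on the 8 genes only. Member results that rest on control 1 and Txnip 2 are given with and without them. In pooled RNA of this kind, fewer cells of a type and less RNA per cell cannot be told apart.

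Photoreceptor identity is set by a small group of DNA-binding proteins. Otx2 and its target Crx, both homeodomain proteins, commit precursors to the photoreceptor fate and then drive the phototransduction genes of cones and rods alike. Nrl, a leucine zipper protein, turns a precursor into a rod and acts with Nr2e3, an orphan nuclear receptor that represses cone genes in rods. Without Nrl the precursor becomes a cone, in which the nuclear receptors Thrb and Rxrg and the zinc finger protein Sall3 shape which opsin is made. Neurod1 is a basic helix-loop-helix protein that mature photoreceptors keep, Rorb is a nuclear receptor upstream of Nrl, and Prdm1 is a zinc finger repressor that holds precursors back from the bipolar fate.

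Promoter sequence is shown for Crx, the member called between strains below, for Thrb, which varied with Crx in BALB/c, and for the rod factors Nrl and Nr2e3, which were high in the libraries that stood apart. The 250 bases upstream of the RefSeq start site (GRCm38.p6) are written 5′ to 3′ on the strand of the gene, with capitals on each match to TAATCC or its reverse complement GGATTA, the core bound by homeodomain proteins of the Crx and Otx2 type. They lie at chr7:15879956-15880205 (minus strand), chr14:17660710-17660959 (plus strand, the more upstream of the start sites listed for Thrb), chr14:55524253-55524502 (minus strand) and chr9:59950080-59950329 (minus strand).
Crx: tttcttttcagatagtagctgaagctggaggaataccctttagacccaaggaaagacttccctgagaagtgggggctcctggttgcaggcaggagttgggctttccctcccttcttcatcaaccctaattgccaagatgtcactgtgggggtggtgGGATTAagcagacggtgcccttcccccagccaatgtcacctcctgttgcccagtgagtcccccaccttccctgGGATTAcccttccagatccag
Thrb: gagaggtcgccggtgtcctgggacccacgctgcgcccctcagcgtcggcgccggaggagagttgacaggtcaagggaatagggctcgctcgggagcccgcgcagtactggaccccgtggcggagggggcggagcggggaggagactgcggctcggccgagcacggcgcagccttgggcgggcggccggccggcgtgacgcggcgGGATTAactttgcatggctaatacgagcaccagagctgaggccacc
Nrl: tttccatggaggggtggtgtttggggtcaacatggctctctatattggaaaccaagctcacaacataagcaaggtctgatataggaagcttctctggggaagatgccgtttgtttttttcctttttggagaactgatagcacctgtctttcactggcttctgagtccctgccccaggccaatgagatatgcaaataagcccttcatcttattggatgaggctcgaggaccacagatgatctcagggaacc
Nr2e3: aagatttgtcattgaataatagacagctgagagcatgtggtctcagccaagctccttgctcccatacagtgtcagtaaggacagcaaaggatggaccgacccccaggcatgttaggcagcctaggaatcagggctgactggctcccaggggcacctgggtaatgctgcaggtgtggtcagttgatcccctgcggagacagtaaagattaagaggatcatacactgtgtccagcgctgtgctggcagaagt
Windows of 300 bases, from 250 before to 50 after a start site, were at hand for 9 of the 10 members, with none for Sall3. The TAATCC core was found on either strand in a window of 3 of these 9 members, Crx (2 matches), Otx2 and Thrb, and of 8.14% of all 27025 genes with a window. Otx2 was searched in 4 windows, of which 1 held the match. Thrb was searched in 2, and only the upstream window shown above held the match. The other, with upstream bases at chr14:17981394-17981643, held none. Which start site of Thrb these cones used was not tested. The windows of Nrl and Nr2e3 did not contain these letters. AGGTCA, a nuclear receptor half-site, was in windows of Rxrg and Thrb (18.1% of genes), TGCTGA, an Nrl half-site, in windows of Otx2, Neurod1 and Rorb (21.7%), and CAGATG, an E-box, in windows of Otx2 and Nrl (19.2%). These are matches of letters and no binding was measured.

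The first question was how much of each factor control cones hold. Levels of different genes were compared as CPM per kilobase of exon, and all 10 members were counted in every library, with 16 to 6716 pairs each. In BALB/c control cones Crx stood highest, at 370.4 ± 34.3 CPM per kilobase (SD, n = 6), above 99.5% of the 14751 genes tested in the fit of all 4 groups. Neurod1 followed at 210.6 ± 9.28 and Thrb at 92.3 ± 13.2. Rxrg (39.3 ± 4.09) and Otx2 (39.1 ± 5.08) came next, so that Otx2, which acts upstream of Crx in development, was at a lower level than Crx in each of these libraries. Below them were Rorb (14.3 ± 2.25), Sall3 (9.34 ± 1.76), Nr2e3 (7.82 ± 1.01), Prdm1 (5.05 ± 0.501) and Nrl (3.34 ± 1.34 CPM per kilobase). Nrl, the rod determinant, was thus the lowest member and was above 38.2% of the genes tested.

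Neighbours in this order were compared within each library by exact two-sided sign-flip permutation tests, adjusted over the 9 neighbours. For 6 of the 9 the order was the same in all 6 BALB/c libraries, each at an exact adjusted p of 0.0469, and 0.0313 is the smallest unadjusted p that 6 libraries allow. The neighbours were taken from the order of these same libraries. This p therefore restates how many libraries were in order, whatever the size of the gap, and gives no separate support. Crx exceeded Neurod1 by 1.75-fold, Neurod1 exceeded Thrb by 2.30-fold and Thrb exceeded Rxrg by 2.33-fold. Rxrg and Otx2 were not separated (1.01-fold, in that order in 3 of 6 libraries, exact adjusted p = 0.938). Sall3 and Nr2e3 (1.18-fold) and Prdm1 and Nrl (1.64-fold) were each in order in 5 of 6 libraries, with an exact adjusted p of 0.0703. The lower part of the order depends on the length used. Divided by the longest coding transcript of GENCODE M21, which is 2504 bases for Nrl against 5689 exonic bases in the tables, Nrl ranked above Prdm1 (1.31-fold, exact adjusted p = 0.313), Nr2e3 above Sall3 and Otx2 above Rxrg (1.48-fold, exact adjusted p = 0.0469).

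In C57BL/6J control cones the upper part of the order was alike, with Crx at 455.5, 471.6 and 589.3, Neurod1 at 221.6, 275.5 and 252.1 and Thrb at 42.7, 131.9 and 66.0 CPM per kilobase in controls 1, 2 and 3. Crx was above Neurod1 and Neurod1 above Thrb in 3 of 3 libraries, and 3 libraries cannot reach an exact p below 0.25. Thrb spanned 3.09-fold over these libraries and was above Rxrg in only 1 of 3. The rod members had no settled place, with Nr2e3 at 42.6, 2.87 and 5.60 and Nrl at 27.6, 1.83 and 3.12 CPM per kilobase. In control 1 both exceeded Rorb and Sall3, and in control 2 both were lower than either.

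**Figure D1:**
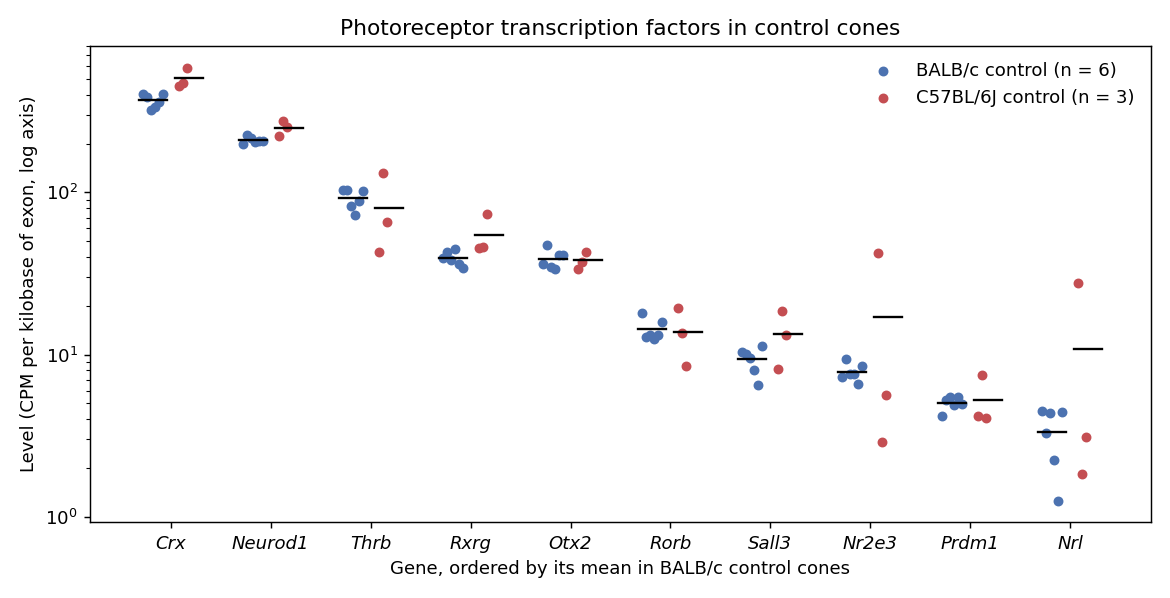
Level of each factor in CPM per kilobase of exon (log axis) in the control libraries, 1 point per library (BALB/c n = 6, C57BL/6J n = 3), with black lines at the group means. Crx is highest in both strains, and 1 C57BL/6J point lies far above the others for Nr2e3 (42.6) and Nrl (27.6).

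Some members share exonic bases with other genes, for which the authors' counting gave a pair to each gene it overlapped and did not use strand. Otx2 shares 154 bases with the opposite-strand Otx2os1 and 168 with Gm49154, Neurod1 shares 201 bases with Cerkl and 154 with the opposite-strand Gm26755, and Nr2e3 shares 61 bases with Gm15507. These are 1.81% to 7.37% of a member's exonic length, which does not bound the shared pairs. The counts of Otx2os1 equal 44.1% of those of Otx2, and the counts of Cerkl and Gm26755 equal 31.2% and 25.2% of those of Neurod1, so the values of Otx2 and Neurod1 are uncertain by an amount the tables do not give. Gm15507 holds 0.666% of the counts of Nr2e3. The counts of Thrb sum over its isoforms, and the cone form TRβ2 cannot be read from them. The members lie on 8 chromosomes, with Otx2, Thrb and Nrl on chromosome 14 and the minus-strand Crx gene, for example, at chr7:15865947-15879968.

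Cone against rod regulators were then compared as the sum of Rxrg, Thrb and Sall3 over the sum of Nrl and Nr2e3, on the scale of CPM per kilobase. In BALB/c controls the ratio had a lowest value of 10.9, a median of 12.6 and a highest value of 16.8, and in BALB/c Txnip cones 7.56, 10.2 and 11.7. The cone sum was therefore the larger in all 12 libraries. The groups overlap only through Txnip 4 (11.7), since the other Txnip ratios were at most 10.35, below the lowest control. The difference in this ratio with Txnip was not tested. In C57BL/6J the ratio was 1.38, 41.9 and 17.5 in controls 1 to 3 and 19.4, 2.60 and 14.5 in Txnip 1 to 3. The low ratios belong to the libraries high in rod genes, control 1 and Txnip 2, and the other 4 lie at or above 14.5. The rod sum moved more than the cone sum: it was 70.2 and 50.3 CPM per kilobase in those libraries against 4.69 to 12.4 in the other 4, while the cone sum was 96.5 and 130.9 against 152.3 to 196.7. The ratio also depends on the length used. With the longest coding transcript, an alternative chosen after seeing the data, it was 6.65 to 11.1 in BALB/c controls and 4.61 to 7.44 with Txnip. In C57BL/6J it was 0.816 in control 1, where the rod sum was then the larger, 1.57 in Txnip 2 and 9.19 to 25.4 in the other 4.

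Nrl had 157.1 CPM in C57BL/6J control 1 and 106.4 CPM in Txnip 2. In the other C57BL/6J libraries it had 10.4 and 17.7 CPM (controls 2 and 3) and 7.33 and 16.2 CPM (Txnip 1 and 3), and in the 12 BALB/c libraries 7.15 to 35.1 CPM. Nr2e3 had 143.4 CPM in control 1 and 106.4 CPM in Txnip 2, against 9.67, 18.9, 28.8 and 32.3 CPM in the other C57BL/6J libraries and 22.03 to 34.8 CPM in BALB/c. Both rod factors were thus high in the same pair of libraries in which the 8 rod genes took the largest share of counts. Genes of other cells were also highest there: the Müller glia list took 0.0649% and 0.0489% of counts, against at most 0.0189% in the other 16 libraries, and the bipolar list 0.0392% and 0.0454%, against at most 0.0160%. The part of these cells in the values was not tested. Whether rod cells or RNA free in the suspension carried these counts was not tested.

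**Figure D2:**
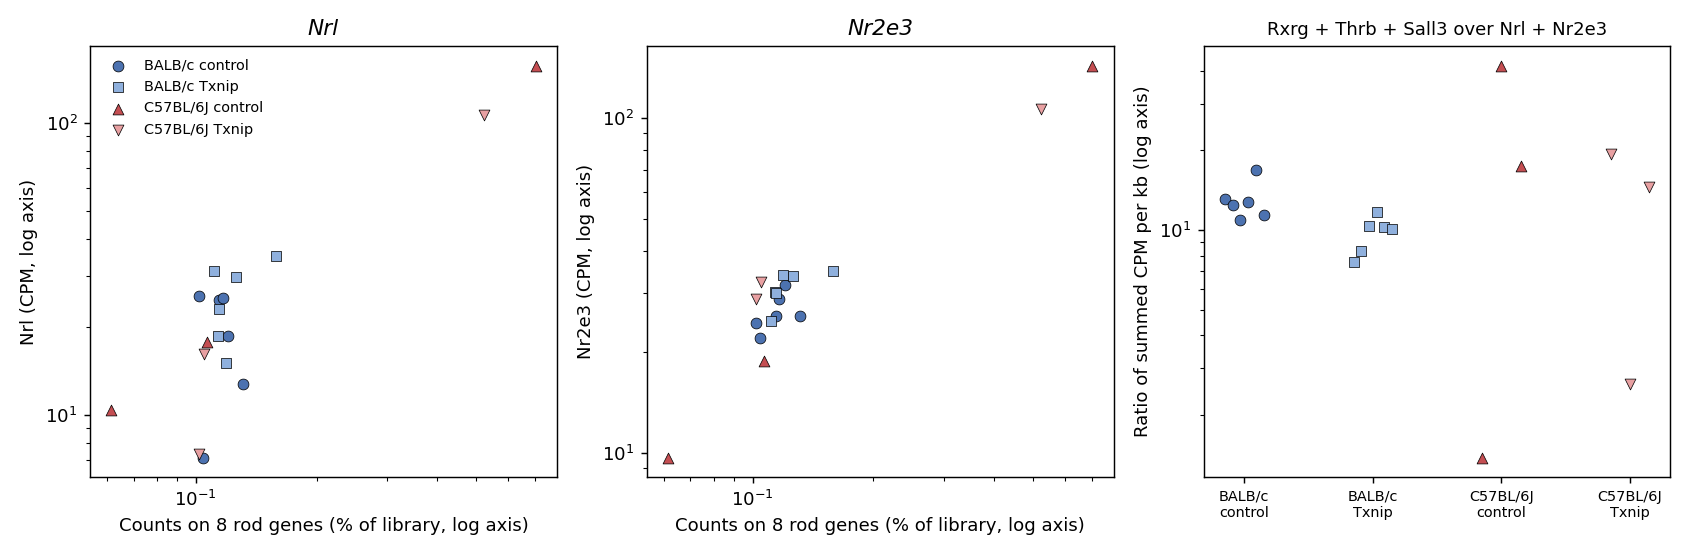
Left and middle, Nrl and Nr2e3 (CPM) against the share of counts on 8 rod genes (percent of library) in the 18 libraries, all axes log. Right, the ratio of the cone factors Rxrg, Thrb and Sall3 to the rod factors Nrl and Nr2e3 (summed CPM per kilobase, log axis) by group. C57BL/6J control 1 (0.703% rod counts) and Txnip 2 (0.523%) lie apart, with ratios of 1.38 and 2.60.

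Within BALB/c, where no library stood apart in this way, each member was correlated with the share of counts on a rod list of 11 genes over the 12 libraries (permutation tests with 100000 resamples, adjusted over the 10 members). No member passed: Otx2 had the highest r of 0.701 (Spearman coefficient 0.650, permutation p = 0.0110, adjusted p = 0.110), Nrl had r = -0.242 (Spearman coefficient -0.350, adjusted p = 0.713) and Nr2e3 r = 0.166 (Spearman coefficient 0.042, adjusted p = 0.713). The r of Otx2 was 0.517 and that of Nr2e3 -0.124 without the 2 libraries farthest from the median rod share. Most of this share came from Sag, Pde6g and Gngt1, rod genes that were also high in these cones. With these 3 left out, a list chosen after seeing the data, Nr2e3 had r = 0.647 (Spearman coefficient 0.741, adjusted permutation p = 0.162 and 0.0741), with r = 0.538 within the controls and 0.672 within the Txnip libraries, and did not pass. Without the 2 libraries farthest from the median its r was 0.880 (adjusted permutation p = 0.0058), so whether it passes depends on those libraries. Nrl had r = 0.332 with that list (adjusted permutation p = 0.801) and 0.325 without its 2 farthest libraries. Over the same libraries the relation of Nrl to the share of counts on the ribosomal RNA locus of chromosome 17 passed by rank only (Spearman coefficient 0.804, r = 0.730 about the group means, permutation p adjusted over 20 such relations 0.0462 and 0.0700), and r was 0.531 without the 2 farthest libraries. For Sall3 it did not pass (Spearman coefficient 0.741, r = 0.691, adjusted permutation p = 0.0533 and 0.0947).

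The second question was how the strains differ in control cones. Crx was higher in C57BL/6J at postnatal day 35 than in BALB/c at postnatal day 21, and it was the only member to pass edgeR's test. In BALB/c controls Crx had a lowest value of 1025, a median of 1185 and a highest value of 1284 CPM, and in C57BL/6J controls it had 1439, 1490 and 1862 CPM. All 3 C57BL/6J values lie above all 6 BALB/c values. The log2 fold change was 0.45 (SE 0.12, 95% interval 0.19 to 0.71) or 1.37-fold, adjusted p = 0.0149 (quasi-likelihood test in edgeR, adjusted over all genes tested). Without C57BL/6J control 3, the highest library, the log2 fold change was 0.32 and no longer passed (edgeR adjusted p = 0.142).

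A count of 1 in 10 members is to be read against 17.5% of all 14751 genes called in this comparison (8.03% higher and 9.52% lower), so the share of members is not above the background. Ranges that do not overlap were found for Crx and Rxrg, 2 of 10 members, against 18.6% of all genes. Without adjustment, 6 members had p under 0.05 and 4591 genes did. The median log2 fold change was 0.35 over the 10 members, of which 7 were positive, and -0.0012 over all genes.

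Rxrg, the retinoid partner of thyroid hormone receptors, had a lowest value of 78.4, a median of 89.2 and a highest value of 103.0 CPM in BALB/c controls and 104.8, 106.0 and 168.0 CPM in C57BL/6J controls. These ranges do not overlap either, but the log2 fold change of 0.49 (SE 0.17) had an edgeR adjusted p of 0.0505. It was 0.23 (edgeR adjusted p = 0.462) without C57BL/6J control 3 and passed without control 1 (0.59) or control 2 (0.58). Sall3 had 45.0, 67.6 and 78.2 CPM (lowest, median and highest) in BALB/c and 56.2, 128.2 and 90.9 CPM in C57BL/6J, with a log2 fold change of 0.51 (SE 0.21, edgeR adjusted p = 0.101), which was 0.17 without C57BL/6J control 2 and 0.75 without control 1, where it passed (edgeR adjusted p = 0.0152). Thrb ran from 539.4 to 769.3 CPM in BALB/c, with a median of 707.7, and was at 315.9, 976.7 and 488.5 CPM in C57BL/6J, below, above and again below that whole range. Its log2 fold change was -0.20 (SE 0.22, edgeR adjusted p = 0.587), which turned to 0.085 without C57BL/6J control 1 and passed at -0.79 without control 2 (edgeR adjusted p = 0.00455). It had the largest coefficient of variation of the cone factors in C57BL/6J controls, 57.7% against 14.3% in BALB/c controls.

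Nrl and Nr2e3 had the largest fitted log2 fold changes, 1.70 (SE 0.66, edgeR adjusted p = 0.0811) and 1.11 (SE 0.50, edgeR adjusted p = 0.133), and neither passed. Both passed with all genes of at least 1 count kept (1.70, edgeR adjusted p = 9.27e-12, and 1.115, edgeR adjusted p = 1.37e-05), where 2744 genes were called. The fold changes barely moved there, and the SE fell to 0.23 and 0.22. That setting also called 1400 genes with Txnip in BALB/c, against 2 in the main fit. The C57BL/6J control mean of Nrl rests on control 1, at 157.1 CPM against 10.4 and 17.7 CPM. With the rod share as covariate the fold changes of Nrl and Nr2e3 were 0.92 and 0.32 (edgeR adjusted p = 0.396 and 0.691). In a fit without C57BL/6J control 1 and Txnip 2, chosen after seeing the data, both turned to lower in C57BL/6J, with -0.43 (adjusted p = 0.528) for Nrl and -0.88 (SE 0.24, adjusted p = 0.0122) for Nr2e3. The libraries left out were chosen for their rod genes and held the highest Nrl and Nr2e3 of C57BL/6J. A fall of both in that fit was thus built into the choice, and its p-values are no separate support. In that fit Rxrg (0.59, adjusted p = 0.0132), Sall3 (0.75, adjusted p = 0.0107) and Crx (0.50, adjusted p = 0.00467) were higher, so 3 members were called higher and 1 lower, where 17.6% of all 15614 genes were called. Only 2 C57BL/6J controls remain there. Without C57BL/6J control 2 instead, 5 members passed, with Thrb at -0.79, Nrl at 2.18 and Nr2e3 at 1.596 beside Crx and Rxrg, where 16.1% of all 15489 genes were called. Neurod1 depended on the tool. It had a log2 fold change of 0.25 (SE 0.11, 95% interval 0.014 to 0.48, edgeR adjusted p = 0.136) and was the other member called by DESeq2, at 0.23 (adjusted p = 0.0443). An exact permutation test of Neurod1 alone gave p = 0.0238 before adjustment. Otx2, Rorb and Prdm1 had -0.038, -0.049 and 0.053 (edgeR adjusted p from 0.890 to 0.933).

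Cell type markers also differed between these controls, where 8.03% of all genes were called higher and 9.52% lower in C57BL/6J. Of 6 ganglion cell genes 6 were lower, of 6 amacrine genes tested 4 were lower, of 11 rod genes 4 were higher, and of 13 cone genes 4 were higher and 1 lower. Of 5 Müller glia genes tested 2 were higher and of 1 microglia gene 1, and none of 8 bipolar, 4 horizontal and 1 endothelial genes tested was called by edgeR. Without C57BL/6J control 1 and Txnip 2 (6.58% of all 15614 genes called higher, and 1714 lower), 0 of 11 rod genes were higher and 2 lower, 0 of 4 Müller glia genes were called, 7 cone genes were higher and 1 lower, 1 of 8 bipolar and 1 of 5 horizontal genes were lower, and the ganglion and amacrine counts were again 6 and 4 lower. The summed ganglion list was 0.0372% to 0.108% of counts in BALB/c controls and 0.00232% to 0.0101% in C57BL/6J controls, and the summed cone list 5.18% to 6.73% and 5.14% to 10.01%. The part of these markers in the values of Crx and Rxrg was not tested. In C57BL/6J control 3, where Crx and Rxrg were highest, the cone list was also highest.

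The third question was whether Txnip changed the factors. In BALB/c cones 0 of 10 members differed between Txnip and control by edgeR's quasi-likelihood test, by DESeq2, or at an unadjusted edgeR p under 0.05. Of all 12017 genes edgeR called 0.0166% (2 genes, and 1372 at an unadjusted p under 0.05). This background was not stable: DESeq2 called 76 of all genes, and edgeR called 1400 with all genes of at least 1 count kept. The 10 log2 fold changes lay between -0.18 (Prdm1) and 0.41 (Nrl), with a median of -0.043 beside 0.00024 over all genes, and 4 were positive. Crx, with a lowest value of 1065, a median of 1109 and a highest value of 1223 CPM with Txnip, had a log2 fold change of -0.052 with a 95% interval of -0.21 to 0.11. Neurod1 had -0.035 with an interval of -0.18 to 0.11 and Rxrg -0.092 with an interval of -0.29 to 0.10.

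Nr2e3 came nearest to a difference. It had a lowest value of 22.03, a median of 25.6 and a highest value of 31.7 CPM in controls and 24.8, 32.0 and 34.8 CPM with Txnip. The ranges overlap, the log2 fold change was 0.28 (SE 0.14, 95% interval -0.0012 to 0.56), and it did not pass after adjustment (edgeR adjusted p = 0.437). An exact permutation test of Nr2e3 alone gave p = 0.0411 before adjustment. Nrl had 7.15, 21.7 and 25.5 CPM (lowest, median and highest) in controls and 15.1, 26.4 and 35.1 CPM with Txnip, with a log2 fold change of 0.41 (SE 0.28, 95% interval -0.17 to 1.00, edgeR adjusted p = 0.588), and from 0.23 (without control 5) to 0.56 (without Txnip 3) with 1 library left out. The controls with the lowest Nrl, 4 and 5, were also those with the smallest share of ribosomal RNA counts (6.07% and 6.00%, against 8.70% to 16.3% in the other BALB/c libraries). No member had ranges that did not overlap, which 0.624% of 14751 genes had.

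In C57BL/6J cones 0 of 10 members differed with Txnip by edgeR or DESeq2, or at an unadjusted p under 0.05, where edgeR called 0.0154% of 12974 genes (2 genes, and 97 at an unadjusted p under 0.05). The log2 fold changes lay between -0.51 (Nrl) and 0.28 (Prdm1), with a median of 0.050 beside 0.012 over all genes, and each had an edgeR adjusted p of 1. Single libraries set these extremes: Nrl was 1.62 without control 1 and -2.40 without Txnip 2, Nr2e3 was 1.97 without control 1, and Prdm1 was -0.12 without Txnip 2. The intervals were wide, from -0.43 to 0.47 for Otx2 to -3.00 to 1.97 for Nrl, so that changes in either direction were bounded less tightly than in BALB/c. No member's ranges separated, which 4.33% of all genes did, and an exact permutation test of 3 against 3 cannot go below p = 0.1. Rxrg was at 193.4, 102.4 and 141.2 CPM with Txnip against 104.8, 106.0 and 168.0 CPM in controls. Rorb was at 67.3, 292.9 and 162.7 CPM with Txnip against 215.8, 150.4 and 94.0 CPM, its highest value in each group being in the library high in rod genes. Without those libraries Nr2e3 had a log2 fold change of 1.08 (edgeR adjusted p = 1).

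The difference in the effect of Txnip between strains was tested for itself in the fit of all 4 groups. It was called for 0 of 10 members by edgeR and by DESeq2 and for 0.0% of all 14751 genes by edgeR (706 at an unadjusted p under 0.05, among them 0 members). The differences lay between -0.95 (Nrl, SE 0.98) and 0.44 (Prdm1, SE 0.37) on the log2 scale. With 1 library left out, that of Nrl ran from -2.80 (without C57BL/6J Txnip 2) to 1.17 (without control 1) and that of Prdm1 from 0.078 (without Txnip 2) to 0.79 (without control 2).

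**Figure D3:**
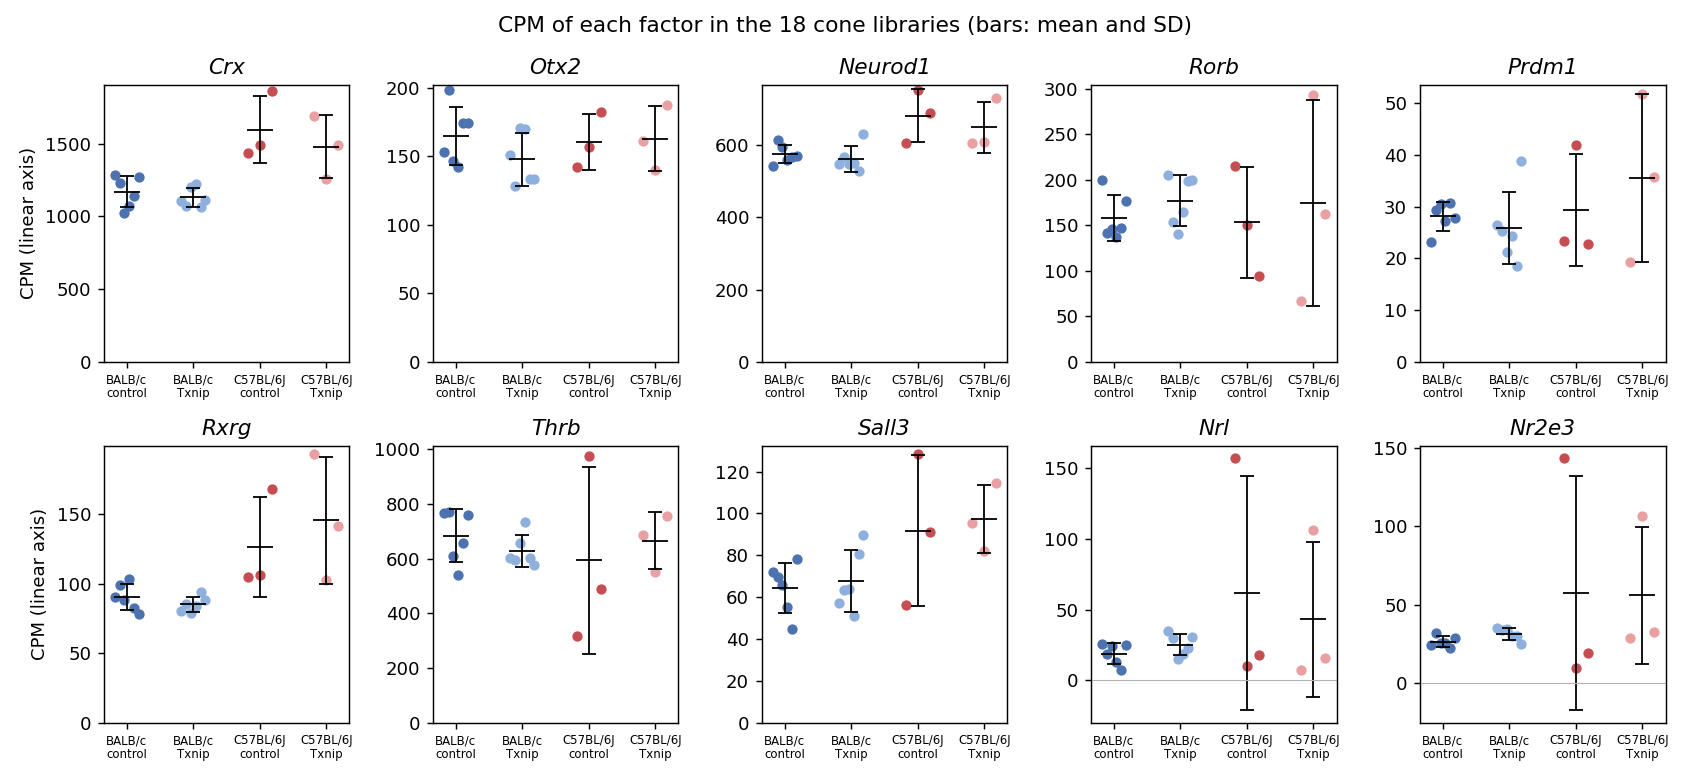
CPM of each factor (linear axes) in the 4 groups, 1 point per library, with black bars for mean and SD (BALB/c n = 6 and 6, C57BL/6J n = 3 and 3). The BALB/c groups overlap for all 10 factors, and the C57BL/6J SD of Nrl and Nr2e3 exceeds that of BALB/c, with 1 library per group far above the others.

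**Figure D4:**
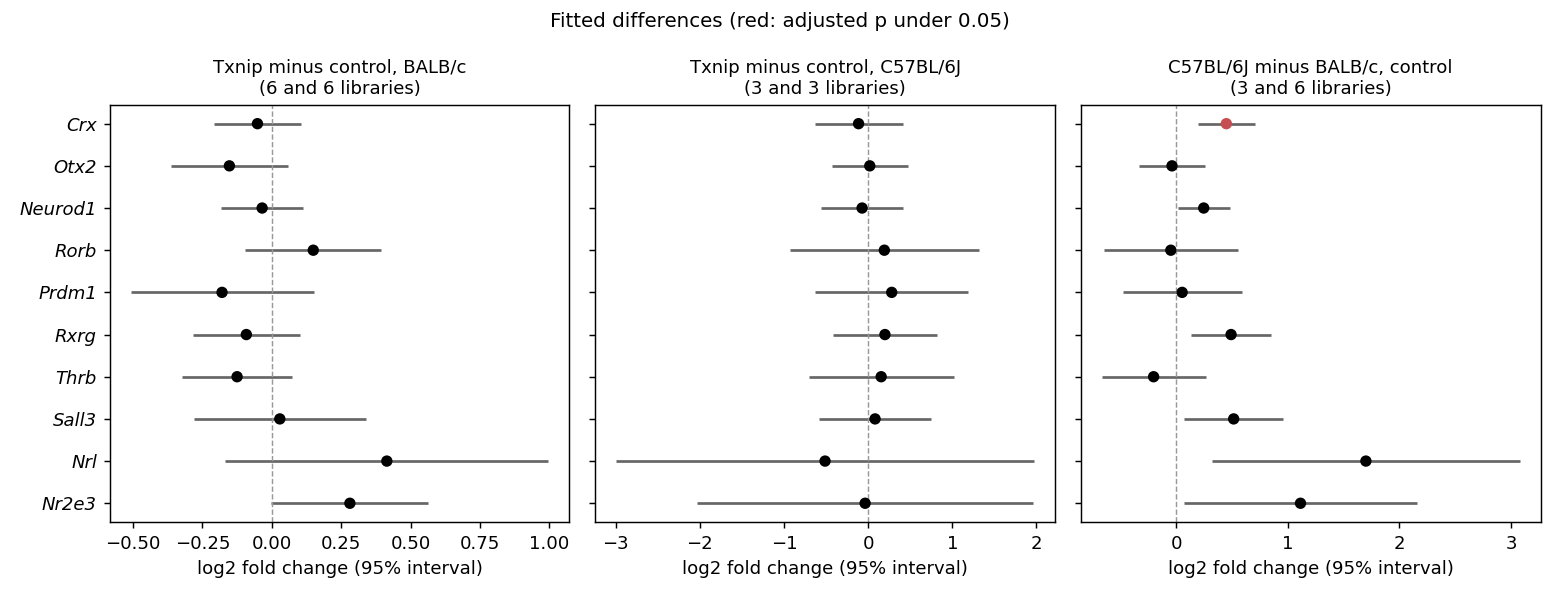
Fitted log2 fold change of each factor with its 95% interval for Txnip against control in each strain and for C57BL/6J against BALB/c control cones, on horizontal axes of different length. Crx between strains (0.45), in red, is the only value with an adjusted p under 0.05.

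Members that moved together from library to library were looked for in BALB/c, as the correlation of log2 CPM about the group means over 12 libraries (permutation tests with 100000 resamples, adjusted over 45 pairs). Crx and Thrb rose and fell together, with r = 0.896 and a Spearman coefficient of 0.832 (adjusted permutation p = 0.00450 and 0.0213), with r = 0.906 within the 6 controls and 0.869 within the 6 Txnip libraries. Crx ran from 1025 CPM (control 3) to 1284 CPM (control 1) and Thrb was 607.7 and 768.4 CPM in these libraries. Neurod1 and Prdm1 formed the other such pair, with r = 0.890 and a Spearman coefficient of 0.839 (adjusted permutation p = 0.00450 and 0.0213), 0.762 within controls and 0.956 within Txnip libraries. Without the 2 libraries farthest from the median of the first gene, r was 0.911 for Crx with Thrb and 0.793 for Neurod1 with Prdm1, and after removal of the linear relation to library total and ribosomal RNA share it was 0.894 and 0.875. Otx2 with Thrb passed by rank only (Spearman coefficient 0.881, adjusted permutation p = 0.0166, r = 0.734 with adjusted permutation p = 0.117). The BALB/c libraries differ by little, since Crx spans 1.25-fold among controls. Over all 18 libraries, about the group means, r was only 0.345 for Crx with Thrb and 0.584 for Neurod1 with Prdm1. Other genes were as close in BALB/c: Usp2, for example, had r = 0.905 with Crx and 0.938 with Thrb over the 12 libraries. The share of all gene pairs this alike was not computed.

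Nrl and Nr2e3, which stand together in rods, did not pass as a pair in BALB/c (r = 0.323, Spearman coefficient 0.238, adjusted permutation p = 0.890). Over all 18 libraries their r was 0.872 and without the C57BL/6J libraries high in rod genes it was 0.416, so the larger value rests on those libraries. The relation of Rxrg to the log2 library total in BALB/c did not pass (r = -0.748, Spearman coefficient -0.755, permutation p adjusted over 20 relations 0.0700 and 0.0533, r = -0.768 without the 2 farthest libraries).

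**Figure D5:**
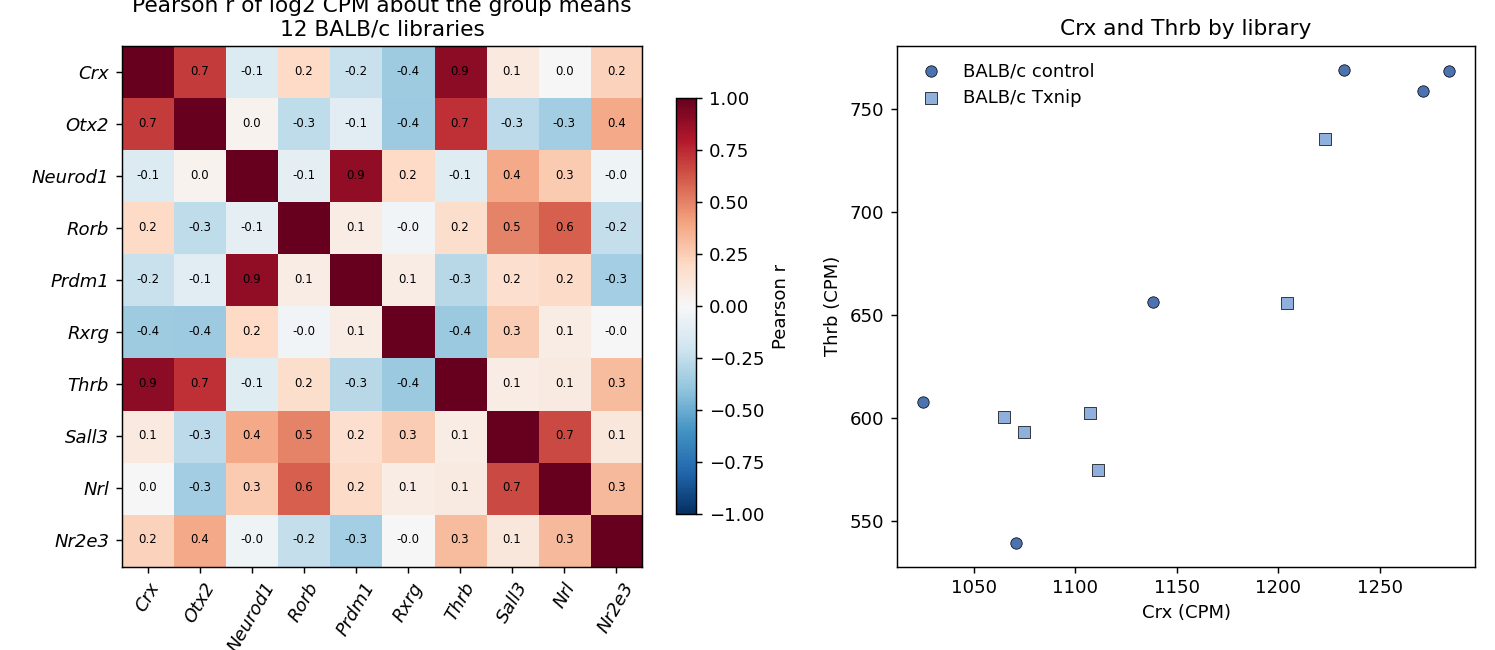
Left, Pearson r between each pair of factors over the 12 BALB/c libraries (log2 CPM about the group means, color scale from -1 to 1). Right, Thrb against Crx (CPM, linear axes that do not start at 0) in the same libraries, where both range together (r = 0.896).

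The genes most alike to each member across all 18 libraries, about the group means and among 14750 other genes, are given as a description, since each library shares its depth and makeup over all its genes. Among the 3 nearest of Nrl were Mtss1l (r = 0.930) and Gnb1 (0.929), and among those of Nr2e3 the rod phosphodiesterase Pde6b (0.967) and the rod transducin Gnat1 (0.960). Rorb was most like Afap1 (0.926), Fry (0.913) and Pde6a (0.912), the last also a rod phosphodiesterase subunit. Without the pair of libraries high in rod genes, none of these rod genes was among the 3 nearest of Nrl, Nr2e3 or Rorb. Of the 30 nearest genes of the 10 members only 5 were kept in the 16 libraries, and Rorb, Thrb, Sall3, Nrl and Nr2e3 kept none. For Rxrg the nearest were Camk2b (0.942), Guk1 (0.934) and Ciapin1 (0.913), of which Camk2b was kept (0.943). Crx was most like Fam3a (0.899), Tmem88 (0.879) and Slc31a2 (0.876), Thrb like Slc37a3 (0.880), Nptx1 (0.879) and Tbc1d13 (0.871), and Sall3 like Prtg (0.893) and 4930447C04Rik (0.877). Otx2 was most like Nrbf2 (0.829), Gm49513 (0.802) and Lypla1 (0.791), Neurod1 like Cdc42se1 (0.882), Usp46 (0.868) and Sptb (0.853), and Prdm1 like Sec24a (0.942), Gprin3 (0.927) and Insr (0.918).

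A list of 27 other photoreceptor regulators gave the setting of the 10. Under Txnip edgeR's quasi-likelihood test called none, out of 22 tested in BALB/c cones, where 5 had an unadjusted p under 0.05 (1372 of all 12017 genes did), and 24 in C57BL/6J cones, where 0 did. The lowest p of the 5 was that of Fiz1, a zinc finger protein that binds Nrl, with a log2 fold change of -1.11 (edgeR adjusted p = 0.106). Between the strains 6 of 23 tested were called in control cones, all higher in C57BL/6J, where 17.5% of all genes were called and 8.03% were higher. The list median was 0.31 on the log2 scale, beside -0.0012 over all genes. They were Samd11, a Polycomb-associated silencing protein of photoreceptors (14.7 ± 2.57 CPM in BALB/c and 43.3 to 285.7 CPM in C57BL/6J, log2 fold change 3.09), the orphan receptor Esrrb (1.67), Thra, the alpha thyroid hormone receptor (0.65), Mef2d, a MADS-box partner of Crx (0.55), the homeobox gene Six6 (0.50) and the clock repressor Nr1d1 (0.48). Without the libraries high in rod genes 6 of 24 were called, all higher, where 17.6% of all genes were called and 6.58% were higher. Samd7 (0.72) then passed, Thra (0.45, edgeR adjusted p = 0.198) did not, and Samd11 was at 1.64.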

How the data were processed

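RNA-seq counts of sorted WT cones were analysed from 18 libraries. The authors counted read pairs with featureCounts 1.6.2 on annotated exons (Ensembl 94, GRCm38) and deposited whole counts per gene without normalization. STAR is named in the submitters' processing notes without a version. A pair was counted for every gene it overlapped, and strand was not used. The authors' tables of log2 fold changes and p-values were not used.

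Groups came from the sample labels. Counts were fitted in R 4.3.3 with edgeR 4.0.16 (filterByExpr, TMM, glmQLFit, glmQLFTest, Benjamini-Hochberg adjustment over all genes tested, threshold 0.05), each strain on its own for Txnip and all 4 groups in 1 fit for the strain comparison and the difference between strains. CPM used TMM library sizes. Levels per kilobase used the exonic length in the tables and 0.5 counts as pseudocount where log ratios were tested, and correlations about group means used 2 counts per library. Permutation tests were run in Python 3.11.15 and were two-sided. Fits were tested on simulated counts. Totals of 647712 to 5172156 pairs set the precision.

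All 10 members were named, with overlapping genes, those of the 3 genes most alike to each that are reported here, and called regulators of the list. The members and lists were chosen with earlier results of these data known. Alternatives were DESeq2 1.42.0, its size factors, all genes with at least 1 count, ribosomal RNA and mitochondrial genes left out, the log2 rod share as covariate, the replicate number as block, 1 fit for all groups, the transcript length, and each library left out. A gene of the planned rod list is not reported here, and the list of 11 without it was used throughout. The rod list without Sag, Pde6g and Gngt1, and fits without C57BL/6J control 1 and Txnip 2, were added after seeing the data. None of 36 pairs of libraries from 1 group agreed within sampling noise.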

Additional observations from a re-analysis of the deposited data

Results flagged for a closer look

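Neurod1 in BALB/c Txnip library 6 had 632.2 CPM, far from the other 5 Txnip libraries of this strain (529.0 to 566.3 CPM). The distance to the nearest library was 0.638 of the whole range, above the 95% critical value of Dixon's test for 6 samples. Prdm1 was also highest there (38.7 CPM), and it was the library with the fewest counted pairs (647712). In all, 20 groups of values were examined this way and 1 was flagged, where chance flags about 1 in 20.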

How the results depend on the processing

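The absence of member calls under Txnip held in every alternative, with 0 calls in 350 refitted values and a smallest adjusted p of 0.229 (edgeR or DESeq2). The number of all genes called with Txnip in BALB/c, 2, was 76 by DESeq2, 1400 with all genes with at least 1 count, 331 with the share of the 8 rod genes as covariate, and 2 to 258 with 1 library left out (23 without control 1, 258 without Txnip 1, 6 without Txnip 2). In C57BL/6J it was 5 with all genes kept. The difference between strains was called for 186 genes with all genes kept, 2 without both C57BL/6J libraries high in rod genes and 0 to 1 with 1 library left out. The members called between control cones of the strains, 1 in the report, were 2 by DESeq2, 3 with all genes kept, 2 and 3 with the rod share of the 11 and the 8 rod genes as covariate, 4 without both libraries high in rod genes, and 1 to 5 with 1 library left out. Beside them 2663, 2744, 2917, 3263 and 2742 of all genes were called in turn, and 1605 (without C57BL/6J control 3) to 2489 with 1 library left out, against 2588 in the report. Crx lost its call only without C57BL/6J control 3, where Nrl was the 1 member called. Against the rod share, r was 0.035 for Rorb and 0.332 for Nrl with the 8 rod genes and -0.124 for Nr2e3 without the 2 farthest libraries, and 0 members passed in each. With both changes together Nr2e3 passed (r = 0.880, adjusted permutation p = 0.0058). The rod list with 1 gene left out was the list of 11 used throughout and was not run apart.

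Directions of members that turned, in log2 fold change, follow. Txnip in C57BL/6J gave -0.011 for Otx2 with all genes kept, 0.53 for Nrl and 0.93 for Nr2e3 with the rod covariate, 0.52 for Nr2e3 with the covariate of 8 genes, and, without both libraries high in rod genes, -0.10 for Rorb, -0.24 for Prdm1, -0.044 for Thrb, -0.078 for Sall3 and 1.08 for Nr2e3. The strain comparison gave 0.0065 for Otx2 and -0.30 for Nr2e3 with the covariate of 8 genes, and 0.026 for Otx2, 0.084 for Thrb, -0.43 for Nrl and -0.88 for Nr2e3 without both libraries. Prdm1 in the difference between strains was then -0.036. With 1 library left out, Txnip values ranged from -0.058 to 0.10 for Sall3 in BALB/c. In C57BL/6J they ranged from -0.12 to 0.11 for Otx2, -0.20 to 0.0053 for Neurod1, -0.44 to 0.58 for Rorb, -0.12 to 0.62 for Prdm1, -0.036 to 0.45 for Rxrg, -0.15 to 0.72 for Thrb, -0.17 to 0.40 for Sall3, -2.40 to 1.62 for Nrl and -0.94 to 1.97 for Nr2e3. Between strains they ranged from -0.14 to 0.027 for Otx2, -0.39 to 0.21 for Rorb, -0.31 to 0.21 for Prdm1, -0.79 to 0.085 for Thrb, -0.42 to 2.18 for Nrl and -0.88 to 1.596 for Nr2e3, and the difference of Nrl from -2.80 to 1.17. The cause of these changes was not tested.

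Same-numbered Txnip and control libraries did not deviate together (r about the group means -0.125 to 0.037 in BALB/c and -0.119 to 0.120 in C57BL/6J), so the numbers were not used as pairs in the main fits. Such correlations cannot tell whether same-numbered retinas shared a mouse. With the replicate number as block 3 genes were called in BALB/c and 2 in C57BL/6J, no member among them, and Nr2e3 in C57BL/6J was at 0.56. Nrl, Nr2e3 and Prdm1 had as few as 20, 16 and 21 counts in a library, which limits the precision of their levels. With 3 libraries per group, C57BL/6J bounds only large changes.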
